A study of Arabidopsis thaliana with 8 samples.

Results

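The WRKY genes of *Arabidopsis thaliana*, a family of plant transcription factors, were examined in RNA-Seq libraries of etiolated seedlings. Members were found by locus identifier from a list of 52 loci, all of which are among the 33518 loci of the deposited count table, and 50 of the 52 had enough reads to be tested. The 4 groups, with 2 libraries each, were *iaa3* treated with brassinolide (*iaa3* BL), *iaa3* mock, wild-type Col-0 treated with brassinolide (WT BL) and WT mock. All seedlings, controls included, had grown for 5 days in darkness on 2 µM propiconazole (PPZ), an inhibitor of brassinosteroid synthesis, and the treatment was 100 nM brassinolide (BL), an active brassinosteroid, or mock for 4 hr. The mutant allele, *iaa3/shy2-2*, is a gain-of-function mutation that stabilises the auxin repressor IAA3, and it lies in the plant's own gene rather than in a transgene. Whole seedlings were used, so that fewer cells of a type and less RNA per cell cannot be told apart.

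WRKY proteins share a DNA-binding domain, named for its WRKYGQK amino acids and followed by a zinc finger, which binds the W-box, a short element with the core TTGAC. They are sorted by their domains into group I, which has a WRKY domain in both the N-terminal and the C-terminal part, the subgroups IIa to IIe, and group III, which has a different zinc finger. Many are known for roles in immunity and in the salicylic acid and jasmonate pathways, others for heat, phosphate, senescence and trichomes, and WRKY46, WRKY54 and WRKY70 are known to act with BES1, a brassinosteroid transcription factor, in growth. Because many WRKY genes carry W-boxes in their own promoters, the family is known as a network of genes that regulate each other.

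The 250 bases before the start of each member gene were read from the RefSeq TAIR10.1 genome and searched on both strands for the W-box, TTGACC or TTGACT. At least 1 box was found upstream of 18 of the 52 members (34.6%), against 5647 of the 19772 tested protein-coding loci (28.6%). The sequences that follow are shown because they belong to the members that were higher in *iaa3* both with BL and in mock and hold 2 or more boxes, with WRKY46, the member with the largest difference, added as an example with none. They lie at chr2:16107985-16108234 (plus strand, *WRKY33*), chr5:8154711-8154960 (minus strand, *WRKY30*), chr4:12393983-12394232 (minus strand, *WRKY53*), chr4:6758848-6759097 (plus strand, *WRKY41*), chr3:327413-327662 (minus strand, *WRKY45*), chr2:9924636-9924885 (plus strand, *WRKY15*) and chr2:19044956-19045205 (minus strand, *WRKY46*). Each runs 5′ to 3′ on the gene's strand and ends at the base before the gene start, and capitals mark the W-boxes, which read GGTCAA or AGTCAA where the box is on the other strand. A core TTGAC not followed by C or T was not counted or marked, as at gtcaa in the *WRKY46* sequence.
WRKY33: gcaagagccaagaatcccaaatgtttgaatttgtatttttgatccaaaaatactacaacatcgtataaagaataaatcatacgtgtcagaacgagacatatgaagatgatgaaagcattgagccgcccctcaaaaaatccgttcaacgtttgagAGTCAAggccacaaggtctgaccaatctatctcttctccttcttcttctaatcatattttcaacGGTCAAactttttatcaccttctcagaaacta
WRKY30: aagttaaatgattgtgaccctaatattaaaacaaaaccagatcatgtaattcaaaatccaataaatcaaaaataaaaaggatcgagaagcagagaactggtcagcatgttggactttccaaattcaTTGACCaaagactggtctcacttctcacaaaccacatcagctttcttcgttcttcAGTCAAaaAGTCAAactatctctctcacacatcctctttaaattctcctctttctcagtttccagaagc
WRKY53: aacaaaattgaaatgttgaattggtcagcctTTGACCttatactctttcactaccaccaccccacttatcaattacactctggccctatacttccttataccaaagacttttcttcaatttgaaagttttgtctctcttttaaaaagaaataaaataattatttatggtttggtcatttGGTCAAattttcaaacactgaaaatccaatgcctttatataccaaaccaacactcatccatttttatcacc
WRKY41: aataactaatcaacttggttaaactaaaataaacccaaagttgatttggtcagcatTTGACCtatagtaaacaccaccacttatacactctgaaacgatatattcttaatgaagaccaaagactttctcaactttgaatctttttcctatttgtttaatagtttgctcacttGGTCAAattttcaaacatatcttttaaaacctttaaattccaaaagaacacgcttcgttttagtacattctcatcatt
WRKY45: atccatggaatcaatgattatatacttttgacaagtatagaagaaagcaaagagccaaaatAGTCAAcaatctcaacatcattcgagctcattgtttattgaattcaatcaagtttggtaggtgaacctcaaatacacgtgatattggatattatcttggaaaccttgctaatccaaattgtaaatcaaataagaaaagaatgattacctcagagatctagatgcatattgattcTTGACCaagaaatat
WRKY15: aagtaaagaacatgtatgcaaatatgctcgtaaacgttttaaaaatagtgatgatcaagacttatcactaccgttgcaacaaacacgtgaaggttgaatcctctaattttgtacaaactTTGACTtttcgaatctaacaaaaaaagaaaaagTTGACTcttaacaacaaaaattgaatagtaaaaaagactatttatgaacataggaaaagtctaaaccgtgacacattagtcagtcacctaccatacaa
WRKY46: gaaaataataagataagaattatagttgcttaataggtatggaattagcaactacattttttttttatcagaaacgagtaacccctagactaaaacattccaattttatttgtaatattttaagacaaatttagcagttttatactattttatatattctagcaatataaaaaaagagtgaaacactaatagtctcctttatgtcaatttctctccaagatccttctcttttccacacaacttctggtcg

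The boxes began 96 and 32 bases before the gene start in *WRKY33*, 124, 69 and 61 bases before it in *WRKY30*, and 131 and 98 bases before it in *WRKY15*. In the related group III genes *WRKY53* and *WRKY41* the boxes began at 219 and 71 bases and at 194 and 78 bases. Both of these upstream regions hold the run ttGGTCAAattttcaaaca around the box nearer to the gene, a stretch of 19 identical bases, whereas the longest identical run in any of the other 28 pairs of related members was 11 bases. In *WRKY45* the boxes began at 189 and 15 bases. Of the 20 members that were higher in *iaa3* under both treatments, 9 (45%) had a box and 6 (30%) had 2 or more, against 3 of 22 (13.6%) and 2 of 22 (9.09%) of the tested members that were higher under neither, and 6.18% of all tested protein-coding loci had 2 or more. The 20 members include *WRKY30*, with 3 boxes, and *WRKY71*, with none. Both had enough reads only in the *iaa3* groups, so that a difference could only be higher there. These shares are a description, since the counts are small and were not tested. Of the other motifs searched, the G-box CACGTG was upstream of 11.5% of members (7.4% of all), the brassinosteroid element CGTGTG or CGTGCG of 13.5% (7.01% of all) and the auxin element TGTCTC of 11.5% (10.6% of all).

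Each library held between 18107519 and 23183988 reads assigned to genes, with a median of 22316700, and a count of 3 was worth 0.120 to 0.172 CPM (counts scaled to library size by the trimmed mean of M-values, TMM), which is a limit from counting error only. The labels do not say whether the 2 libraries of a group came from separate cultures, so that p-values measure the spread between these libraries. *PORA*, the protochlorophyllide reductase gene of dark-grown seedlings, was highly expressed in every library, at 564 and 477 CPM in *iaa3* BL and 426 and 468 CPM in *iaa3* mock, against 1113 and 1170 CPM in WT BL and 628 and 673 CPM in WT mock. The brassinosteroid synthesis gene *DWF4*, known to be repressed by BL, had 86 and 99 counts in *iaa3* BL, against 4420 and 3537 in *iaa3* mock, and 111 and 98 in WT BL, against 3338 and 3588 in WT mock. IAA3 transcript counts were 198 and 259 in *iaa3* BL and 306 and 244 in *iaa3* mock, against 2874 and 2698 in WT BL and 997 and 1128 in WT mock, and these levels do not show the amino acid change itself. In *iaa3* BL, 40 of the 50 tested members were higher in replicate 2 than in replicate 1, with a median difference of 0.15 on the log2 scale, against 15 of 50 in WT mock, 23 of 50 in WT BL and 26 of 50 in *iaa3* mock.

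Summed over the 52 members, expression was 1777 and 2221 CPM in the *iaa3* BL libraries, 1631 to 1661 CPM in *iaa3* mock, 1011 to 1015 CPM in WT BL and 982 to 1058 CPM in WT mock. Both *iaa3* groups were therefore above both WT groups in every library, while BL and mock WT libraries overlapped. The members outside the tests were *WRKY12*, a regulator of pith cell walls, and *WRKY55*, which had at most 3 counts in every library, and *WRKY12* had 0 in all 4 *iaa3* libraries. Of the 50 tested members, 46 passed the read filter in all 4 groups. The others were *WRKY13*, which passed through WT BL alone, *WRKY30* and *WRKY71*, which passed through the *iaa3* groups alone and so could only be higher there, and *WRKY74*, which passed in all groups but WT BL. Per kilobase of exon, the highest members in WT mock were *WRKY15* (41.6 CPM per kb), *WRKY11* (35.4) and *WRKY22* (30.5). In *iaa3* BL the highest was *WRKY33* at 134.9 CPM per kb, against 16.6 CPM per kb in WT BL.

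**Figure D1:**
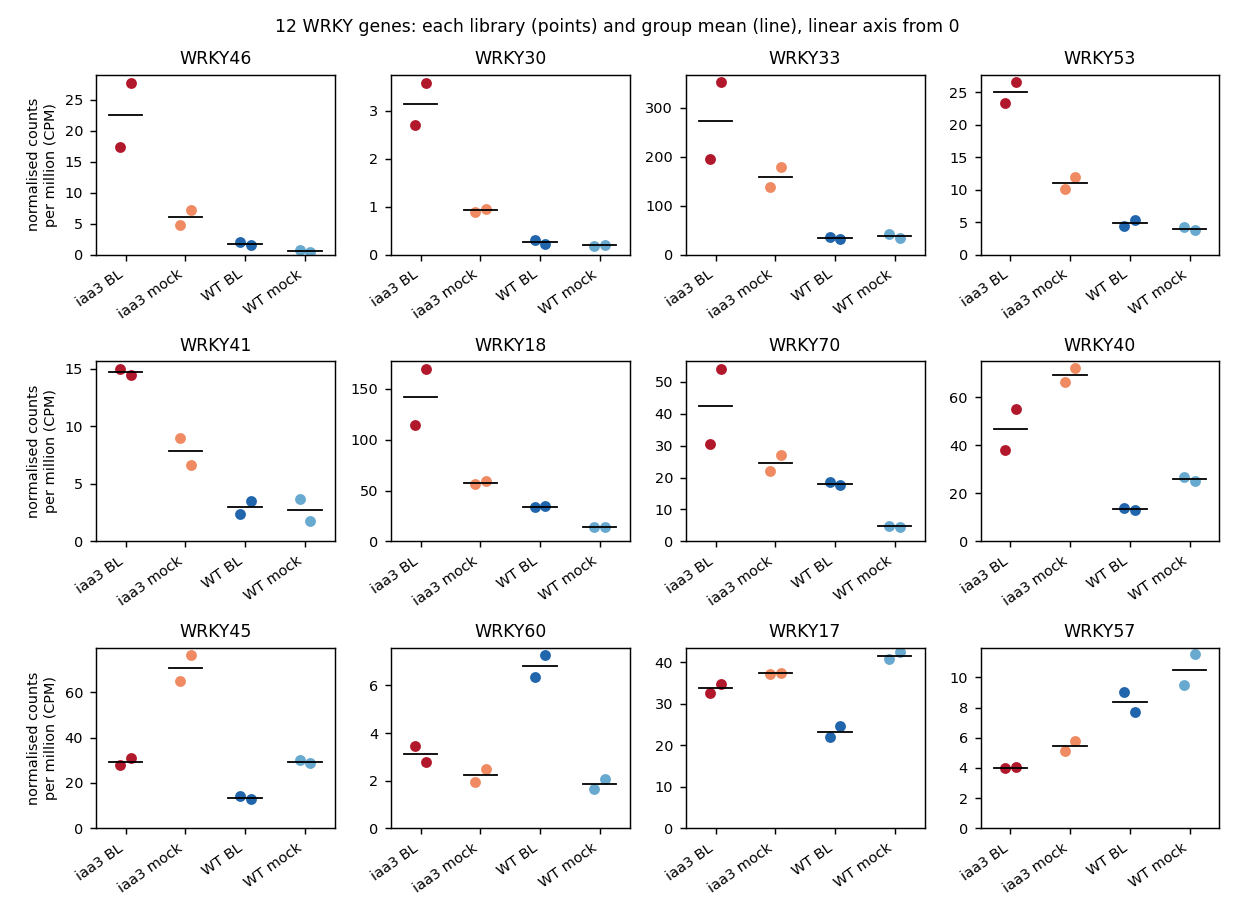
Expression (CPM) of 12 WRKY genes in each of the 8 libraries, with a point for each library and groups in the order *iaa3* BL, *iaa3* mock, WT BL and WT mock. *WRKY46* lay at 17.3 and 27.7 CPM in *iaa3* BL and at 2.06 and 1.47 CPM in WT BL, while *WRKY60* was lower in *iaa3* BL (3.44 and 2.79 CPM) than in WT BL (6.36 and 7.28 CPM).

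To ask how the auxin-insensitive mutation relates to WRKY expression when brassinosteroid is supplied, *iaa3* BL was compared with WT BL. A gene was called when it differed by at least 1.5-fold at an unadjusted p under 0.01 in edgeR's quasi-likelihood test, and adjusted p values are by Benjamini-Hochberg over all 20415 tested loci. Of the 50 members, 26 were higher and 2 lower in *iaa3*, which is 56% of members, against 25% of all tested loci called (11.2% higher and 13.8% lower). The median member difference was 0.70 on the log2 scale, against -0.0027 for all loci, and 41 of the 50 differences were positive. All 7 tested group III members were called higher, with a median of 2.31. Those called higher elsewhere were 3 of 10 in group I (median 0.19), 2 of 7 in subgroup IIe (median 0.05) and 6 of 11 in IIc (median 0.86). They were 4 of 7 in IId (median 0.64), 2 of 5 in IIb (median 0.69) and 2 of 3 in IIa. The lower members were *WRKY60* in IIa and *WRKY57* in IIc. Without *WRKY30* and *WRKY71*, which had passed the read filter through the *iaa3* groups alone, 24 of 48 members and 6 of 6 in group III were higher, with medians of 0.67 and 2.25.

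*WRKY46* (AT2G46400), a group III gene of salicylic acid and brassinosteroid responses, had 17.3 and 27.7 CPM in *iaa3* BL, against 2.06 and 1.47 CPM in WT BL. Every *iaa3* library was far above every WT library, and the difference was 12.8-fold (log2 3.67, SE 0.29, edgeR adjusted p = 2.24e-06). *WRKY30* (AT5G24110) had 2.7 and 3.59 CPM in *iaa3* BL, against 0.313 and 0.223 CPM in WT BL, with a log2 difference of 3.53 (SE 0.33). The WT values of *WRKY30* are near the limit that 3 counts allow, so that its fold is less certain than its direction. *WRKY53* (AT4G23810), known as a regulator of leaf senescence, had 23.4 and 26.6 CPM in *iaa3* BL, against 4.39 and 5.36 CPM in WT BL (log2 2.36, SE 0.14, edgeR adjusted p = 2.29e-07). Its close relative *WRKY41* (AT4G11070) had 15 and 14.5 CPM in *iaa3* BL, against 2.42 and 3.53 CPM in WT BL (log2 2.31, SE 0.27). These sister genes differed by nearly the same amount in this comparison. Whether their shared upstream run has a part in it was not tested.

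*WRKY38* (AT5G22570), a repressor of basal defence, had 5.28 and 4.58 CPM in *iaa3* BL, against 0.851 and 1.3 CPM in WT BL (log2 2.19, SE 0.23). *WRKY70* (AT3G56400), which is known to promote salicylic acid responses and repress jasmonate responses, had 30.6 and 53.8 CPM in *iaa3* BL, against 18.5 and 17.6 CPM in WT BL. Its log2 difference was 1.23 (SE 0.21, edgeR adjusted p = 0.00063), and 0.76 without replicate 2 of *iaa3* BL, still called. The related *WRKY54* (AT2G40750) was far weaker in expression, with 1.89 and 2.09 CPM in *iaa3* BL, against 0.672 and 0.715 CPM in WT BL (log2 1.52, SE 0.30). Within group III the groups did not overlap for any tested member, but neither did they for 43 of the 50 tested members. In WT BL against WT mock they did not overlap for 25 of the 50. How many of all tested loci did so was not counted, so that these counts show nothing particular to the family.

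In group I, *WRKY33* (AT2G38470), required for defence against necrotrophic fungi and for camalexin synthesis, had 195 and 352 CPM in *iaa3* BL, against 35.6 and 31.8 CPM in WT BL. Both *iaa3* libraries stood clear of the WT range although they differed from each other, and the difference was 8.11-fold (log2 3.02, SE 0.24, edgeR adjusted p = 2.76e-06). The related *WRKY25* (AT2G30250) and *WRKY26* (AT5G07100), which act with *WRKY33* in heat tolerance, were higher by 1.13 (SE 0.07) and 1.28 (SE 0.10) on the log2 scale. *WRKY25* had 132 and 147 CPM in *iaa3* BL, against 63.6 and 64 CPM in WT BL, and *WRKY26* had 86.6 and 109 CPM in *iaa3* BL, against 38.8 and 41.6 CPM in WT BL. The other 7 group I members were not called. Among them was *WRKY44*, also named TTG2 for its role in trichomes and seed coats. It had 0.975 and 1.1 CPM in *iaa3* BL and 1.12 and 1.7 CPM in WT BL.

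The related IIa genes *WRKY18*, *WRKY40* and *WRKY60*, which act together in defence and abscisic acid responses, did not move together. *WRKY18* (AT4G31800) had 114 and 169 CPM in *iaa3* BL, against 33.4 and 34.7 CPM in WT BL (log2 2.06, SE 0.15, edgeR adjusted p = 1.04e-06). *WRKY40* (AT1G80840) had 38.2 and 54.9 CPM in *iaa3* BL, against 14.1 and 13.2 CPM in WT BL (log2 1.77, SE 0.15). *WRKY60* (AT2G25000) had 3.44 and 2.79 CPM in *iaa3* BL, against 6.36 and 7.28 CPM in WT BL, and fell by 1.13 on the log2 scale (SE 0.19, edgeR adjusted p = 0.00058). *WRKY18* and *WRKY40* were thus higher and *WRKY60* lower.

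Of subgroup IIb, *WRKY6* (AT1G62300), a regulator of phosphate loading and senescence, had 47.8 and 63.9 CPM in *iaa3* BL, against 17.7 and 16.7 CPM in WT BL (log2 1.70, SE 0.12). Its relatives *WRKY31* (log2 -0.06, SE 0.15) and *WRKY42* (log2 0.69, SE 0.30) were not called. *WRKY72* was higher by 0.93 (SE 0.10). In subgroup IIc, *WRKY51*, which with *WRKY50* represses jasmonate responses, had 3.96 and 6.87 CPM in *iaa3* BL, against 0.582 and 1.38 CPM in WT BL (log2 2.47, SE 0.36, and 3.21 without replicate 2 of WT BL). *WRKY50* itself stayed between 5.98 and 6.94 CPM in all 8 libraries and was called in no comparison.

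*WRKY28*, a regulator of the salicylic acid synthesis gene *ICS1*, had 21.5 and 24.4 CPM in *iaa3* BL, against 7.75 and 8.31 CPM in WT BL (log2 1.52, SE 0.12). Its relatives *WRKY71* (log2 1.49, SE 0.41) and *WRKY8* (log2 0.86, SE 0.24) were called at low expression. Each call was lost in 3 of the 8 fits that left out a library, with *WRKY71* at 1.18 to 1.88 and *WRKY8* at 0.57 (without replicate 2 of *iaa3* BL) to 1.08 over those fits. *WRKY45*, a regulator of phosphate uptake, was higher by 1.13 (SE 0.10), and the auxin-inducible *WRKY23* by 0.86 (SE 0.15). *WRKY57*, known for drought tolerance and for linking jasmonate and auxin in senescence, had 4.02 and 4.03 CPM in *iaa3* BL, against 9.05 and 7.73 CPM in WT BL, and fell by 1.06 (SE 0.16, edgeR adjusted p = 0.00025).

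In subgroup IId, whose proteins bind calmodulin, *WRKY15* (log2 1.20, SE 0.14), *WRKY21* (0.94, SE 0.10), *WRKY7* (0.64, SE 0.08) and *WRKY11* (0.60, SE 0.08) were called higher. *WRKY7* and *WRKY11* lie close to the 1.5-fold threshold and lost their calls without replicate 2 of *iaa3* BL (0.57 for *WRKY7* and 0.49 for *WRKY11*) and without a WT BL library. *WRKY17*, which acts with *WRKY11* as a negative regulator of basal resistance, had a log2 difference of 0.54 (SE 0.08), just under the threshold. In IIe, *WRKY22* and *WRKY29*, known as the WRKY outputs of the flagellin-triggered kinase cascade, were higher by 1.41 (SE 0.09) and 0.71 (SE 0.10). *WRKY22* had 100.1 and 117 CPM in *iaa3* BL, against 41 and 40.6 CPM in WT BL, while its relative *WRKY27* was close between the groups (log2 0.10, SE 0.11).

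**Figure D2:**
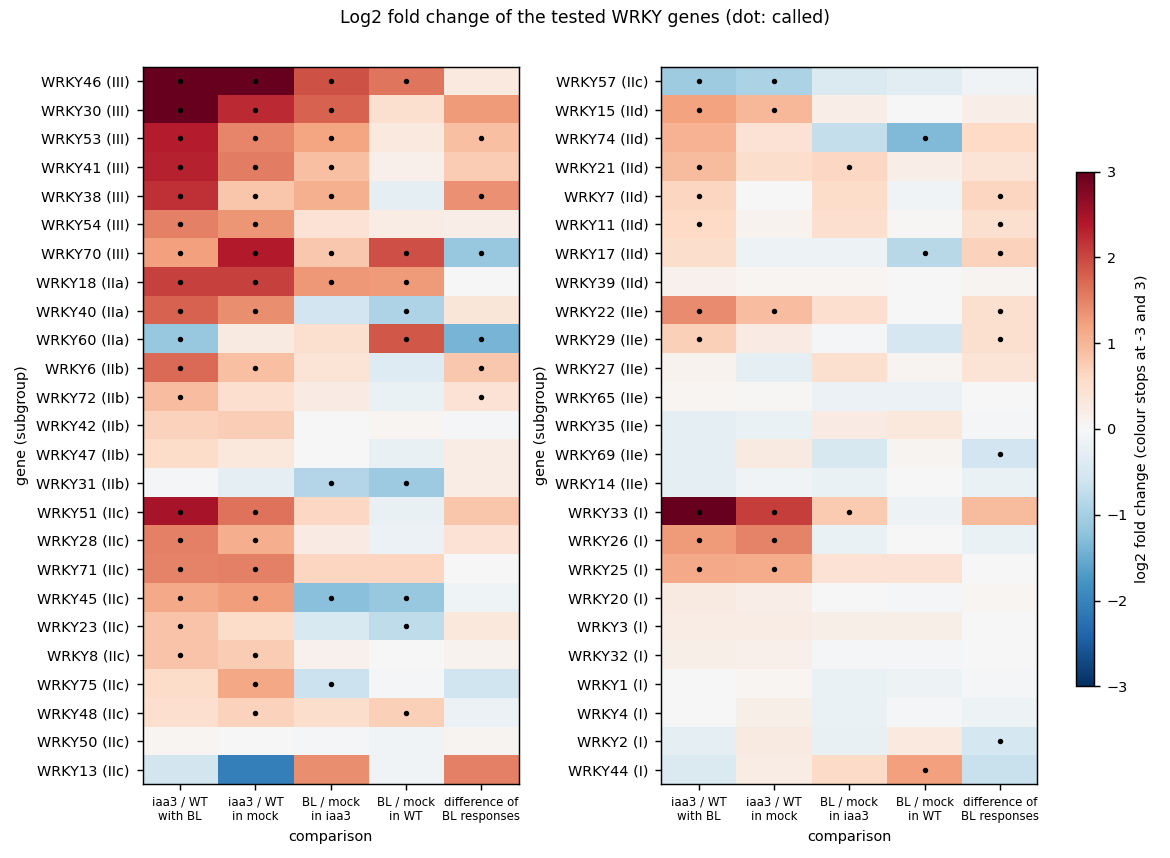
Log2 differences of the 50 tested members (rows, by group) in the 4 pairwise comparisons and the interaction (columns), coloured from lower to higher, with a dot where the member was called. The group III block is called higher in 7 of 7 rows in both columns that compare *iaa3* with WT, and the IIa rows show *WRKY60* lower beside *WRKY18* and *WRKY40* higher.

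Without BL, *iaa3* mock was compared with WT mock. Of the 50 members 22 were higher and 1 lower in *iaa3*, or 46% of members, against 17.9% of all tested loci called (8.47% higher and 9.48% lower), with a median of 0.51 for members and -0.012 for all loci. These 4 libraries are not those of the comparison with BL, although both comparisons came from 1 fit. Without *WRKY30* and *WRKY71* the count was 20 of 48 (median 0.46). In all, 20 of 50 members were higher in *iaa3* under both treatments (18 of 48 without *WRKY30* and *WRKY71*), against 5.59% of all tested loci. They were the 7 tested group III members together with *WRKY25*, *WRKY26*, *WRKY33*, *WRKY18*, *WRKY40*, *WRKY6*, *WRKY8*, *WRKY28*, *WRKY45*, *WRKY51*, *WRKY71*, *WRKY15* and *WRKY22*. With another test, DESeq2, the mock calls of *WRKY8*, *WRKY38*, *WRKY54* and *WRKY71* were lost. The members called higher with BL alone were *WRKY72*, *WRKY23*, *WRKY7*, *WRKY11*, *WRKY21* and *WRKY29*, and those called higher in mock alone were *WRKY48* and *WRKY75*. A call under 1 treatment does not show that the 2 treatments differ, and that difference is the interaction given further on.

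*WRKY46* again had the largest difference, with 4.83 and 7.21 CPM in *iaa3* mock, against 0.726 and 0.438 CPM in WT mock (10.4-fold, log2 3.38, SE 0.39, edgeR adjusted p = 8.05e-05). *WRKY70* had 21.9 and 26.9 CPM in *iaa3* mock, against 4.99 and 4.42 CPM in WT mock (log2 2.38, SE 0.25, edgeR adjusted p = 4.31e-05). *WRKY33* had 138 and 178 CPM in *iaa3* mock, against 41.2 and 33.8 CPM in WT mock, a 4.22-fold difference (log2 2.08, SE 0.24). In each of these the groups were well separated. *WRKY30* was higher by 2.24 (SE 0.41), *WRKY18* by 2.04 (SE 0.16), *WRKY51* by 1.63 (SE 0.36), *WRKY41* by 1.54 (SE 0.28), *WRKY26* by 1.49 (SE 0.10), *WRKY53* by 1.47 (SE 0.15) and *WRKY40* by 1.40 (SE 0.14). Leaving out replicate 1 of WT mock moved *WRKY41* to 2.16, since its WT mock libraries differed (3.72 and 1.75 CPM).

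*WRKY75*, another regulator of phosphate starvation responses, had 18.8 and 21.3 CPM in *iaa3* mock, against 10.4 and 7.61 CPM in WT mock (log2 1.16, SE 0.16, edgeR adjusted p = 0.000228), and its relative *WRKY45* had 65 and 76.2 CPM, against 30.1 and 28.7 CPM in WT mock (log2 1.26, SE 0.09). *WRKY48*, a negative regulator of basal defence, was higher by 0.68 (SE 0.12). *WRKY57* was the member that was lower, with 5.14 and 5.76 CPM in *iaa3* mock, against 9.48 and 11.6 CPM in WT mock (log2 -0.95, SE 0.14, edgeR adjusted p = 0.000439). *WRKY60* did not differ beyond the threshold without BL (1.97 and 2.5 CPM in *iaa3* mock, 1.63 and 2.07 CPM in WT mock, log2 0.26, SE 0.23). *WRKY13* had the largest negative value, -2.06 (SE 0.68), at under 1 CPM in every library, and was not called. *WRKY38* was higher by 0.83 (SE 0.24), a call that was lost when any of the 4 mock libraries was left out (0.73 to 0.93). The calls of *WRKY71*, *WRKY8* and *WRKY54* were lost in 7, 5 and 2 of the 8 fits without 1 library, over which *WRKY71* took values of 0.98 (without replicate 1 of *iaa3* mock) to 1.90, *WRKY8* 0.55 to 1.00 and *WRKY54* 1.01 to 1.56.

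The response of WT seedlings to BL was smaller for the family. In WT BL against WT mock, 6 members were higher and 6 lower (24% of members, against 14.3% of all tested loci called, 8.45% higher and 5.87% lower), and the median was -0.0034, against -0.0097 for all loci. *WRKY70* had 18.5 and 17.6 CPM in WT BL, against 4.99 and 4.42 CPM in WT mock (log2 1.94, SE 0.26, edgeR adjusted p = 0.0002). *WRKY60* had 6.36 and 7.28 CPM in WT BL, against 1.63 and 2.07 CPM in WT mock (log2 1.87, SE 0.20, edgeR adjusted p = 3.5e-05), and *WRKY18* had 33.4 and 34.7 CPM in WT BL, against 14.1 and 13.9 CPM in WT mock (log2 1.29, SE 0.16). All 3 genes were higher in both BL libraries than in either mock library. *WRKY48* rose by 0.71 (SE 0.12). *WRKY46* (log2 1.61, SE 0.49) and *WRKY44* (1.24, SE 0.34) were also called, both at low expression. The call of *WRKY46* was lost when any of the 4 WT libraries was left out (1.28 to 2.00), and that of *WRKY44* without replicate 1 of WT mock (1.05) or replicate 2 of WT BL (0.92).

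The members that fell with BL in WT were *WRKY45*, with 14.1 and 12.8 CPM in WT BL, against 30.1 and 28.7 CPM in WT mock (log2 -1.13, SE 0.10, edgeR adjusted p = 1.07e-05), *WRKY31* (-1.10, SE 0.13), *WRKY40* (-0.94, SE 0.15), *WRKY17* (-0.84, SE 0.08), *WRKY23* (-0.76, SE 0.15) and *WRKY74* (-1.33, SE 0.38). *WRKY40*, with 14.1 and 13.2 CPM in WT BL, against 27 and 25.3 CPM in WT mock, thus went the other way from its relatives *WRKY18* and *WRKY60*. *WRKY17* had 21.9 and 24.5 CPM in WT BL, against 40.7 and 42.3 CPM in WT mock, whereas its close relative *WRKY11* had a value of 0.03 (SE 0.08). *WRKY74* was under 1 CPM in every WT library, and its call was lost without replicate 1 of WT mock (-1.08) or either WT BL library (-1.07 and -1.64). Of the related genes of *WRKY31*, *WRKY6* had a value of -0.40 (SE 0.13) and *WRKY42* of 0.05 (SE 0.31), and *WRKY75*, the relative of *WRKY45*, of -0.05 (SE 0.17), none of them called.

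In *iaa3*, 9 members were higher and 3 lower in BL than in mock (24% of members, against 8.15% of all tested loci called, 4.69% higher and 3.46% lower), with a median of 0.23 for members and 0.0065 for all loci. The *iaa3* BL libraries also enter the comparison with WT BL, so that the results share their error. Of the 7 tested group III members 6 were called higher, the exception being *WRKY54* (0.42, SE 0.27). *WRKY46* had 17.3 and 27.7 CPM in *iaa3* BL, against 4.83 and 7.21 CPM in *iaa3* mock (log2 1.91, SE 0.24, edgeR adjusted p = 0.000369). *WRKY30* rose by 1.77 (SE 0.26), *WRKY18* by 1.30 (SE 0.14), *WRKY53* by 1.18 (SE 0.12), *WRKY38* by 1.07 (SE 0.21), *WRKY41* by 0.91 (SE 0.23) and *WRKY21* by 0.61 (SE 0.10). *WRKY53* had 23.4 and 26.6 CPM in *iaa3* BL, against 10.1 and 11.9 CPM in *iaa3* mock. *WRKY18* had 114 and 169 CPM in *iaa3* BL, against 56 and 59 CPM in *iaa3* mock.

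*WRKY33* (0.79, SE 0.22) and *WRKY70* (0.80, SE 0.20) were called as well, but without replicate 2 of *iaa3* BL, in which both were highest, their values were 0.30 and 0.33 and neither was called. *WRKY21* also fell under the fold threshold without that library (0.55) or without replicate 2 of *iaa3* mock (0.50), which left 6 members called higher without replicate 2 of *iaa3* BL. Both also lost their calls without replicate 1 of *iaa3* mock (0.62 for *WRKY33* and 0.65 for *WRKY70*), and *WRKY33* without replicate 2 of WT BL, which enters only through the shared spread. *WRKY41* lost its call without replicate 2 of *iaa3* mock (0.71) or replicate 1 of *iaa3* BL (0.88). *WRKY45* fell to 27.8 and 31 CPM in *iaa3* BL, against 65 and 76.2 CPM in *iaa3* mock (log2 -1.26, SE 0.09, edgeR adjusted p = 9.82e-06), and *WRKY31* to 5.05 and 4.63 CPM in *iaa3* BL, against 8.76 and 8.89 CPM in *iaa3* mock (log2 -0.87, SE 0.14). *WRKY75* fell by 0.65 (SE 0.16) and lost its call without replicate 2 of *iaa3* mock (-0.56) or replicate 1 of *iaa3* BL (-0.48). *WRKY40*, at -0.57 (SE 0.13), was just under the fold threshold.

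Put side by side, *WRKY18*, *WRKY46* and *WRKY70* were higher and *WRKY31* and *WRKY45* lower with BL in both genotypes, which do not share libraries, against 1.61% and 1.72% of all tested loci. Of these, the WT call of *WRKY46* was lost when any single WT library was left out. The *iaa3* call of *WRKY70* was lost with DESeq2, without replicate 2 of *iaa3* BL and without replicate 1 of *iaa3* mock. In all 19 of 50 members were called with BL in at least 1 genotype, against 18.9% of all tested loci. The genes *WRKY1*, *WRKY2*, *WRKY3*, *WRKY4*, *WRKY20*, *WRKY32*, *WRKY42*, *WRKY47*, *WRKY13*, *WRKY50*, *WRKY39*, *WRKY14*, *WRKY27*, *WRKY35*, *WRKY65* and *WRKY69* were called in none of the 4 pairwise comparisons, and they are 16 of the 50, against 63.8% of all tested loci. Among these were *WRKY3* and *WRKY4*, related group I genes of resistance to necrotrophs, which were well expressed, at 70 and 71.3 CPM for *WRKY3* and 63.5 and 64.8 CPM for *WRKY4* in *iaa3* BL.

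**Figure D3:**
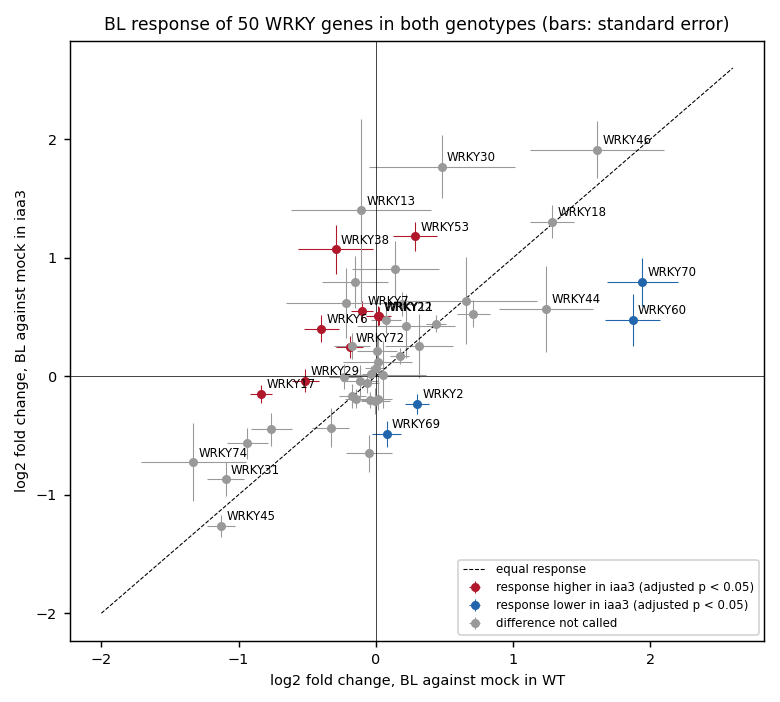
BL response of each tested member in *iaa3* (vertical axis, log2 of BL over mock) against that in WT (horizontal axis, log2 of BL over mock), with bars of 1 SE and the members with a called interaction coloured. *WRKY60* (0.48 in *iaa3*, 1.87 in WT) and *WRKY70* (0.80 and 1.94) lie below the diagonal, and *WRKY53* (1.18 and 0.29) and *WRKY38* (1.07 and -0.29) above it.

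Whether the BL response differed between genotypes was tested directly by the interaction, called at an edgeR adjusted p under 0.05. It was called for 13 members (26%, against 17.6% of all tested loci, 7.63% more positive and 9.95% more negative in *iaa3*), 9 with a more positive and 4 with a more negative response in *iaa3*. Group III was split, with *WRKY38* (1.36, SE 0.34) and *WRKY53* (0.89, SE 0.20) more positive and *WRKY70* (-1.14, SE 0.33) more negative. The interaction call was lost in 4 of the 8 fits without 1 library for *WRKY38* (1.09 to 1.69), in 5 for *WRKY70* (-1.61 to -0.80) and in 1 for *WRKY53*, and DESeq2 called only *WRKY53* of these. *WRKY38* had a response of 1.07 in *iaa3* and -0.29 in WT, and *WRKY53* of 1.18 in *iaa3* and 0.29 in WT. *WRKY60* had the largest negative value, at -1.39 (SE 0.30, edgeR adjusted p = 0.00875), with a response of 0.48 in *iaa3* and 1.87 in WT. *WRKY18*, its relative, had an interaction of 0.02 (SE 0.22) and was not called, with a response of 1.30 in *iaa3* and 1.29 in WT.

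The remaining interactions were smaller. The IId genes *WRKY7* (0.65, SE 0.12), *WRKY11* (0.48, SE 0.11) and *WRKY17* (0.69, SE 0.11) were all more positive in *iaa3*, as were *WRKY6* (0.80, SE 0.17) and *WRKY72* (0.43, SE 0.13) in IIb and *WRKY22* (0.49, SE 0.13) and *WRKY29* (0.47, SE 0.14) in IIe. *WRKY7* had 53 and 58.6 CPM in *iaa3* BL, against 38.3 and 37.9 CPM in *iaa3* mock, while WT BL libraries had 37.3 and 34.1 CPM, against 40.4 and 36.3 CPM in WT mock. *WRKY17* had 32.5 and 34.8 CPM in *iaa3* BL, against 37.2 and 37.4 CPM in *iaa3* mock, a smaller fall than in WT. *WRKY2* (-0.53, SE 0.12), a regulator of polarity in the zygote, and *WRKY69* (-0.56, SE 0.15) were more negative in *iaa3*, although neither was called within a genotype. Without 1 library, the call was lost in 7 of the 8 fits for *WRKY72*, in 6 for *WRKY22*, in 5 for *WRKY69*, in 4 for *WRKY29*, in 2 for *WRKY2* and *WRKY11*, in 1 for *WRKY6* and *WRKY60* and in 0 for *WRKY7* and *WRKY17*. The count of interactions rests on single libraries, with 4 called without replicate 1 of WT BL, 4 without replicate 2 of *iaa3* mock and 8 without replicate 2 of WT BL. Without replicate 2 of *iaa3* BL the count was again 13, but with 7 more positive and 6 more negative.

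Genes that act before and after WRKY factors were counted by list. Of 9 partner and kinase genes, 5 were higher and 0 lower in *iaa3* BL than in WT BL (median 0.62), and 4 higher and 0 lower in *iaa3* mock than in WT mock (median 0.42). They include *MPK3*, a mitogen-activated kinase that phosphorylates WRKY33, with 147 and 229 CPM in *iaa3* BL, against 67.6 and 66.7 CPM in WT BL (log2 1.49, SE 0.16), and *MKS1*, which binds WRKY33 (0.99, SE 0.15). Of the 17 immune receptor and salicylic acid genes, 16 were tested and 11 were higher with BL (median 0.94) and 9 in mock (median 0.67), with 0 lower in each. *ICS1*, the main enzyme of salicylic acid synthesis in defence, had 24.3 and 30.9 CPM in *iaa3* BL, against 8.19 and 9.02 CPM in WT BL (log2 1.69, SE 0.12). The regulators of *ICS1*, *SARD1* and *CBP60G*, were higher by 3.73 (SE 0.36) and 2.24 (SE 0.21), and the flagellin receptor gene *FLS2* by 1.5 (SE 0.10).

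Of the 14 genes listed as defence outputs or WRKY targets, 9 were tested. With BL, 5 were higher and 2 lower in *iaa3* (median 1.27), and in mock 4 were higher and 1 lower (median 0.30). The indolic defence genes *CYP71A12* and *CYP81F2*, which make precursors of camalexin and modified glucosinolates, were higher by 3.33 (SE 0.21) and 3.66 (SE 0.25) with BL, and *PAD3*, the last enzyme of camalexin synthesis and a target of WRKY33, by 1.27 (SE 0.13). *FRK1*, a receptor kinase gene used as a marker of flagellin responses, had 11.5 and 12.4 CPM in *iaa3* BL, against 2.69 and 2.72 CPM in WT BL (log2 2.14, SE 0.13). *PR1*, the marker of salicylic acid responses, went the other way, with 0.344 and 0.598 CPM in *iaa3* BL, against 5.19 and 3.97 CPM in WT BL (log2 -3.24, SE 0.29, edgeR adjusted p = 6.03e-06), and was also lower in *iaa3* mock (-1.87, SE 0.26). *GL2*, a trichome regulator and target of *WRKY44*, was lower in *iaa3* BL than in WT BL (-0.99, SE 0.14). In WT BL against WT mock, 4 of these 9 genes (*FRK1*, *CYP71A12*, *CYP81F2* and *NHL10*) and *FLS2* fell, and *GL2* rose by 1.54 (SE 0.14).

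Marker lists of other stresses also differed between the groups, but not always in the same way as the WRKY genes. The summed level of 9 hypoxia genes was 5296 to 5692 CPM in *iaa3* BL, 1408 to 2389 CPM in *iaa3* mock and 289 to 342 CPM in WT BL. In WT mock it was 1181 CPM in replicate 1 and 301 CPM in replicate 2. With BL, 9 of 9 were called higher in *iaa3* than in WT (median 3.85 on the log2 scale). In mock, 2 of 9 were called higher (median 1.06), with the WT libraries this far apart. The 7 heat shock genes summed to 990 to 1178 CPM in *iaa3* BL, 164 to 182 CPM in *iaa3* mock, 153 to 165 CPM in WT BL and 257 to 283 CPM in WT mock. All 7 were higher in *iaa3* BL than in WT BL, while in mock 0 were higher and 2 lower in *iaa3*. The 11 touch and wounding genes summed to 2175 to 3313 CPM in *iaa3* BL, 1544 to 1763 CPM in *iaa3* mock, 1388 to 1413 CPM in WT BL and 386 to 412 CPM in WT mock, and 9 of 11 were higher in *iaa3* under each treatment. Of 10 markers of etiolated seedlings and their cell types, 5 were lower and 1 higher in *iaa3* BL than in WT BL (median -0.53), and 2 were lower and 1 higher in *iaa3* mock than in WT mock (median -0.17). The largest difference of these markers with BL was that of *IRX1*, a cellulose synthase gene of secondary walls in xylem (log2 -2.75, SE 0.24). *IRX1* had 1.03 and 0.946 CPM in *iaa3* BL, against 7.75 and 5.58 CPM in WT BL. *PORA* was also lower in *iaa3* BL than in WT BL (log2 -1.13, SE 0.09). The root hair marker *COBL9* went the other way, with 4.13 and 3.59 CPM in *iaa3* BL, against 1.97 and 2.19 CPM in WT BL. In mock, *COBL9* was closer, with 2.82 and 3.13 CPM in *iaa3*, against 2.72 and 2.35 CPM in WT. *EXP7*, another root hair marker, had 3.96 and 5.68 CPM in *iaa3* BL, against 4.12 and 4.47 CPM in WT BL. These libraries overlapped, while *EXP7* had 5.32 and 6.31 CPM in *iaa3* mock, against 3.67 and 3.79 CPM in WT mock. The part of the stress genes and of these markers in the WRKY differences was not tested.

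**Figure D4:**
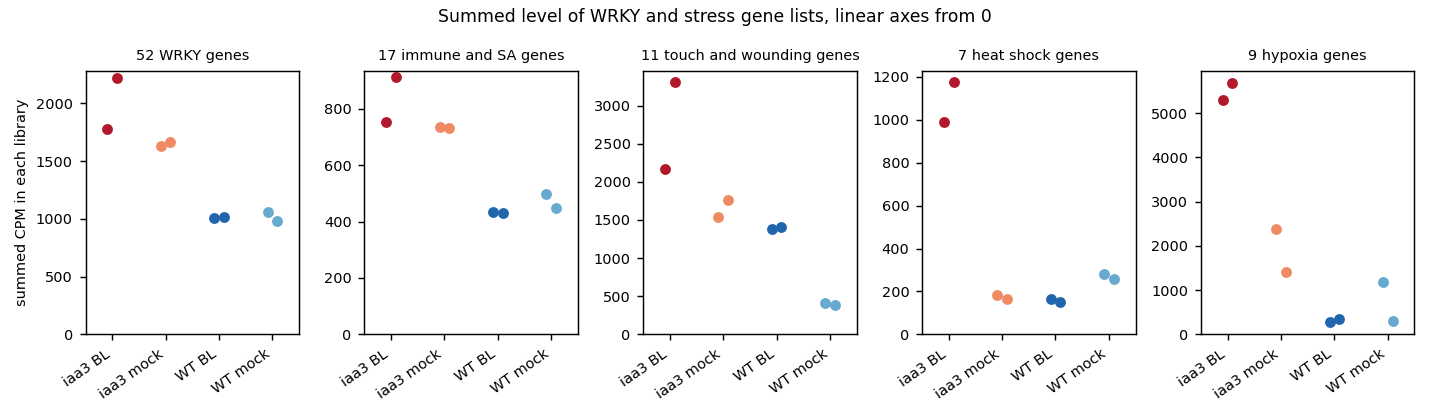
Summed CPM of the 52 WRKY genes and of 4 other gene lists in each library, with a point for each library and groups in the order *iaa3* BL, *iaa3* mock, WT BL and WT mock. The WRKY sum lies at 1631 CPM or more in each *iaa3* library and at 1058 CPM or less in each WT library, while the heat shock sum is raised in *iaa3* BL alone.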

How the data were processed

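The file the authors deposited gives raw counts of reads for every locus in 8 columns, 1 a library, with no normalization. Libraries were made from total RNA with an Illumina TruSeq kit. The submitters' processing notes name CASAVA 1, TopHat, HTSeq and the TAIR9 build; strand use and the treatment of multiply mapping reads are not given in the sources used here, so counts of near-identical or overlapping genes are uncertain. Groups came from the sample labels. Counts were filtered by edgeR's filterByExpr, which kept 20415 loci, scaled by TMM and fitted with 1 coefficient per group over all 8 libraries (R 4.3.3, edgeR 4.0.16, limma 3.58.1) in quasi-likelihood tests. Pairwise calls needed 1.5-fold and p under 0.01, and interactions an adjusted p under 0.05. DESeq2 1.42.0, other scalings, filters and thresholds, a replicate block and leaving out each library were the alternatives, and the code was tested on simulated counts. Named members are up to the 6 largest called rises and falls per comparison, their close relatives and members outside the tests; others named here, such as those called in only 1 comparison, were added after their values were seen. The members and gene lists were chosen with earlier results of these data known. Gene symbols and upstream sequences came from RefSeq TAIR10.1, matched by locus, since the count table holds no coordinates; sequences were read in that build only. Another 17 loci with a WRKY symbol were not members. Of these, 7 passed the read filter, *WRKY62* among them, so that the counts by group cover the listed members only.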

Additional observations from a re-analysis of the deposited data

Results flagged for a closer look

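In 13 members the BL response differed between the genotypes by the test of the interaction itself (edgeR adjusted p under 0.05). They are 26% of the tested members, against 17.6% of all tested loci. A value here is the log2 response in *iaa3* minus that in WT. The response was more negative in *iaa3* for *WRKY60* (-1.39), *WRKY70* (-1.14), *WRKY69* (-0.56) and *WRKY2* (-0.53). It was more positive in *iaa3* for *WRKY38* (1.36), *WRKY53* (0.89), *WRKY6* (0.80), *WRKY17* (0.69), *WRKY7* (0.65), *WRKY22* (0.49), *WRKY11* (0.48), *WRKY29* (0.47) and *WRKY72* (0.43). The call was lost in 4 or more of the 8 fits without 1 library for *WRKY72*, *WRKY22*, *WRKY69*, *WRKY70*, *WRKY29* and *WRKY38*, and with DESeq2 for *WRKY38*, *WRKY70*, *WRKY69*, *WRKY2*, *WRKY29* and *WRKY72*. With 2 libraries per group, no search for outlying libraries within a group was possible.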

How the results depend on the processing

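No called value changed direction under any alternative, and the counts of members called in *iaa3* against WT stayed at 25 to 30 with BL and 21 to 23 in mock when each library was left out. Those of the BL response were 9 to 16 in *iaa3* and 9 to 12 in WT, and the interaction count was 4 to 14, against 13 with all libraries. With DESeq2, 26 members were called in *iaa3* against WT with BL and 19 in mock. The mock calls it lost were *WRKY8*, *WRKY38*, *WRKY54* and *WRKY71*, and those lost with BL were *WRKY8* and *WRKY71*. Of the BL responses it lost *WRKY33* and *WRKY70* in *iaa3*, and *WRKY44* and *WRKY74* in WT. The interaction count was 7 with DESeq2 and 7 at an unadjusted p under 0.01 with 1.5-fold. Requiring 2-fold left 6 of 12 members called with BL in *iaa3*. The member median in WT BL against mock, -0.0034, was 0.00637 with DESeq2, 0.00668 with RLE factors and -0.11 with library size alone, and -0.067 to 0.038 without 1 library. The median of *iaa3* BL against mock was 0.13 to 0.33 without 1 library. In mock, the median of *iaa3* against WT was 0.39 with library size alone, 0.47 with no filter and 0.44 to 0.58 without 1 library. Library size alone moved the median of all loci by -0.10 in WT BL against mock and by -0.12 in *iaa3* mock against WT mock; members called were then 6 higher and 7 lower in WT, 18 higher and 2 lower in mock and 11 more positive and 4 more negative in the interaction.

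The deviations of same-numbered libraries correlated at 0.24 between WT mock and *iaa3* mock, and at -0.063 to 0.059 between the other groups. In both mock groups the hypoxia sum was higher in replicate 1 than in replicate 2. It was 2389 and 1408 CPM in *iaa3* mock, and 1181 and 301 CPM in WT mock. The labels do not say whether same-numbered libraries were handled together. With a replicate block the counts were 12 for BL in WT, 12 in *iaa3*, 28 for *iaa3* against WT with BL, 24 in mock and 12 for the interaction. Of the single-member values under all alternatives 1948 kept their side of the threshold, 144 lost a call and 13 gained one.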
